A study of Mus musculus with 289 samples.

Results

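The comparison set single cortical astrocytes that carried a gRNA against Sox9 beside single cortical astrocytes that carried a gRNA against Trps1, both 21 days after injection and both from 1 count table, that of batch 5. Members were taken from the labels alone, by gRNA, day and batch. There were 51 cells, 21 with the Sox9 gRNA and 30 with the Trps1 gRNA, of 289 samples in the series. All 51 came from adult transgenic mice that expressed Cas9, the nuclease a gRNA directs to its target. The gRNAs were carried by a lentivirus, Mok-LV, built to act in astrocytes and injected into the cerebral cortex. Each cell was drawn up with an electrophysiology pipette and made into a Smart-seq2 library, a full-length polyA RNA method without molecular identifiers. The same table held 23 astrocytes of adult mice labelled no gRNA and 5 in-slice controls of day 21 labelled as holding no cell. Control gRNA cells were not analysed here. Strain, sex and age beyond adult, and whether the no gRNA mice received a virus, are not stated in these sources.

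Sox9 is a transcription factor with an HMG box that is needed to make glia in development and marks nearly all astrocytes of the adult cortex. Trps1 is a repressor with a GATA-type zinc finger, best known from cartilage and bone, where SOX9 is a main regulator of matrix genes. A cut by Cas9 that leaves a small insertion or deletion can destroy the protein and still leave a transcript that is counted.

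The labels name no animal, so each gRNA group was 1 pool and no test was made. Every difference below describes these libraries. Reads were summed over the cells of a pool and given as CPM, counts scaled to a common total of reads in genes. All intervals are 95% intervals, exact Poisson for CPM and Clopper-Pearson for shares of cells. They hold counting error alone, and reads without molecular identifiers are not independent molecules. A log2 ratio is that of Sox9 gRNA over Trps1 gRNA with a pseudocount of 5 CPM on both sides, so that ratios of genes at low levels are understated. The titles put all 21 Sox9 gRNA cells in 1 series (21S) and the Trps1 gRNA cells in 3 series, 9 in 21T, 10 in 21T2 and 11 in 21T3, and the labels do not say what a series is. One cell in each gRNA pool stood apart by markers of another cell type, and results that rest on them are given with and without them. The Sox9 gRNA cells lay on 4 first index sequences and the Trps1 gRNA cells on 5, per the file headers, with 0 in common. A gRNA difference therefore cannot be told apart from the title series or the index. Reads in genes ran from 216448 to 1141634 in Sox9 gRNA cells (median 791956) and from 188896 to 1521798 in Trps1 gRNA cells (median 901014). Of the 79 libraries, 79 had a distinct pair of index sequences, and 0 columns were identical.

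Most cells, but not all, carried the RNA of astrocytes. The 30 astrocyte identity genes summed to 45899 CPM in the Sox9 gRNA pool and 54404 CPM in the Trps1 gRNA pool, against 54717 CPM in no gRNA cells and 10152 CPM in in-slice controls. The cells ranged from 10130 to 124096 CPM and from 3554 to 131403 CPM in the 2 pools. Below the pool of in-slice controls were 1 Sox9 gRNA cell, 2 Trps1 gRNA cells and 2 no gRNA cells. The 2 Trps1 gRNA cells, both of series 21T, were at 3758 and 3554 CPM, had 0 reads of Sox9, Gfap, Mlc1 and Fgfr3, and held 15067 and 27803 CPM of pan-neuronal markers. These go against the label of an astrocyte. Without the 3 cells of the gRNA pools, 1812 (15.7%) of all genes compared below were past a log2 ratio of 1 towards the Sox9 gRNA and 3091 (26.7%) towards the Trps1 gRNA, close to the shares over all cells, and the ratios of Sox9, Serpina3n, Rasa3 and Fgf1 were -1.52, -5.13, 3.60 and -3.78. Of the 30 identity genes, 1 was past a log2 ratio of 1 towards the Sox9 gRNA and 3 towards the Trps1 gRNA. Without the highest cell of each pool for each gene these were 0 and 4. The median of the 30 over all cells was -0.25. That median was 0.11, -0.50 and 0.25 against series 21T, 21T2 and 21T3 alone.

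The promoters of Rasa3, Serpina3n and Pmvk, with log2 ratios of 3.61, -5.07 and -2.45, are shown as examples of either direction. These genes were not picked by rank, and others named below had larger ratios than Pmvk. The stretches shown are bases before the RefSeq start (GRCm38.p6), read 5′ to 3′ on the gene's strand and ended where an annotated exon begins. Capitals mark CCAAT, the letters of a common promoter element, and GGGCGG, those of an Sp1 box. TATAAA, the TATA box, was searched too, and all searches covered both strands. These 3 motifs were added after the sequences had been seen. The windows are chr8:13677604-13677837 on the minus strand, chr12:104406458-104406707 on the plus strand and chr3:89454291-89454540 on the plus strand.
Rasa3: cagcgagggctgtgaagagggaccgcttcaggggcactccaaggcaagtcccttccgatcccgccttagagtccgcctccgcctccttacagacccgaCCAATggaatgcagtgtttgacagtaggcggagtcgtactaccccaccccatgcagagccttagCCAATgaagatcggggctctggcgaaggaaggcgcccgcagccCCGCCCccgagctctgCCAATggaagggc
Serpina3n: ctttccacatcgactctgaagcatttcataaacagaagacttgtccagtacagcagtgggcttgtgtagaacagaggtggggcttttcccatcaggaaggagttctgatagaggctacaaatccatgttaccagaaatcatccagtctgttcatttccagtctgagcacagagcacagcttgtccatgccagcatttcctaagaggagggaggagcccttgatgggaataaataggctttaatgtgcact
Pmvk: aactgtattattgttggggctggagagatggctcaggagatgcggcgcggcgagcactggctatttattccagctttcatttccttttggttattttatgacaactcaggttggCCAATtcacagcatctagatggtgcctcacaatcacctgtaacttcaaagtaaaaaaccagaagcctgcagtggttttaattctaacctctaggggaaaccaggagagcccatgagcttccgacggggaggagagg
Rasa3 held CCAAT 3 times and GGGCGG once, on the opposite strand, where it is printed as CCGCCC. Pmvk held CCAAT once. None of the 3 windows held ACAAAG or ACAATG, the letters of many SOX sites, AGATAA, those of many GATA sites, or TTCNNNGAA, those of many STAT sites. Over the 250 bases before each start in the RefSeq table, ACAAAG stood in 16.5% and ACAATG in 10.7% of 32851 promoters, AGATAA in 9.99% and TTCNNNGAA in 7.02%. CCAAT stood in 33.9%, TATAAA in 12.4% and GGGCGG in 32.7% of them. Among the promoters of the genes compared below, CCAAT stood in 35.0%, TATAAA in 6.25% and GGGCGG in 57.0%. Among the promoters of the 33 genes named by the rule below as higher with the Sox9 gRNA, 27 promoters of 24 genes were in the table, and 11.1% held ACAAAG, 3.70% ACAATG and 7.41% AGATAA. Among the 178 promoters of 142 genes higher with the Trps1 gRNA these were 8.43%, 9.55% and 6.18%. Over all genes compared they were 12.1%, 6.003% and 5.56% of 11378 promoters, so the 2 SOX motifs lay on different sides of that share in the latter set. A match is a description of letters and not a binding site. The window of Cmtm5 overlapped an annotated exon and is not shown.

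The targeted genes came first. Sox9 (ENSMUSG00000000567, chr11:112782224-112787760, plus strand) was at 233 CPM (interval 226 to 240) in Sox9 gRNA cells and at 664 CPM (655 to 674) in Trps1 gRNA cells. In single cells it ran from 0 to 784 CPM with a median of 163, against 0 to 2450 CPM with a median of 417. The pools overlapped, since the Trps1 gRNA series were at 482, 1073 and 399 CPM and 90.0% of those cells had a Sox9 read against 85.7%. The log2 ratio was -1.49, and -0.76 against series 21T3 alone. Cells with no gRNA lay between at 309 CPM.

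Trps1 (ENSMUSG00000038679, chr15:50654752-50890463, minus strand) was at 39.7 CPM (36.8 to 42.9) in the Sox9 gRNA pool and at 57.6 CPM (54.8 to 60.6) in its own gRNA pool. A read was found in 7 of 21 and 13 of 30 cells, and the highest cell alone gave 58.8% and 61.0% of the reads. Series 21T and 21T2 stood at 41.4 and 124 CPM, and series 21T3 at 9.17 CPM. The Trps1 gRNA pool was thus not lower in Trps1 than the Sox9 gRNA pool, while its series 21T3 was. Both pools were below the no gRNA cells. The latter had 91.9 CPM with a read in 17 of 23. Where in these transcripts the guides cut is not stated in these sources. Reads counted over the whole gene do not show a cut.

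The table also has a row named DsRed, the name of a red fluorescent protein, which is no mouse gene and stayed out of all totals. It was at 3939 CPM in the Sox9 gRNA pool, with a read in 21 of 21 cells and a median cell at 3121 CPM. In the Trps1 gRNA pool it was at 576 CPM, with a read in 26 of 30 cells and a median cell at 170 CPM. The series of the latter differed, at 2199 CPM in 21T, 273 CPM in 21T2 and 134 CPM in 21T3. Above 1000 CPM were 17 Sox9 gRNA cells and 4 Trps1 gRNA cells, all 4 of them in series 21T. In no gRNA cells the row held 7 reads in 5 of 23 cells. In-slice controls, which hold no cell, were at 129 CPM, near series 21T3, with a read in 2 of 5 libraries and 492 CPM in the highest. What DsRed marked is not stated, and its part in the differences below was not tested.

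**Figure D1:**
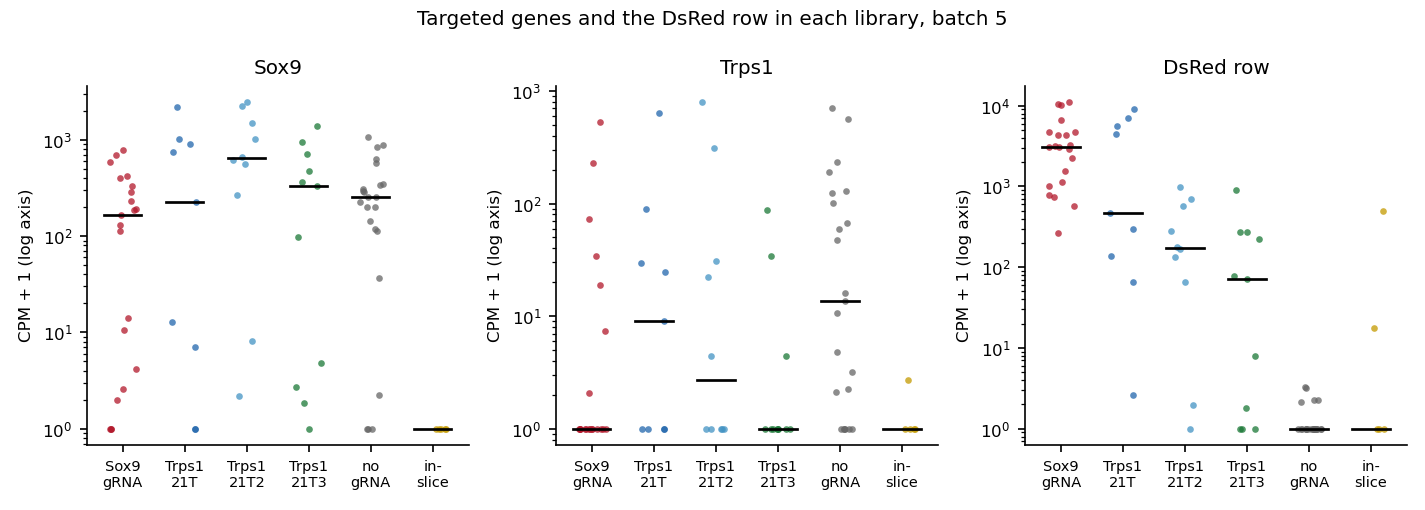
Each point is 1 library and each black line the median of a group, with CPM plus 1 on a log axis, for Sox9, Trps1 and the DsRed row. Trps1 gRNA cells are split by title series. Sox9 overlaps between the gRNAs, with medians of 163 and 417 CPM over the whole pools, and DsRed is highest in the Sox9 gRNA cells, with a median of 3121 CPM.

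Over 11568 genes with a mean of 5 CPM or more over the pools, 1735 (15%) were past a log2 ratio of 1 towards the Sox9 gRNA and 3118 (27%) towards the Trps1 gRNA. With TMM factors, which shift all ratios so that most genes centre near 0, these were 2170 and 2551, so the share of calls towards the Sox9 gRNA went from 35.8% to 46.0%. The median ratio of all genes was -0.29, and -0.07 with TMM factors. Against series 21T, 21T2 and 21T3 alone that median was -0.10, 0.11 and -0.06. The same calls took 21.4%, 30.7% and 26% of genes towards the Sox9 gRNA and 25.4%, 23.2% and 24.9% towards the Trps1 gRNA. Without the highest cell of each pool for each gene, 1179 (10.2%) and 3196 (27.6%) were past the threshold. A stricter rule was therefore used for naming, which asks for a read in 40% or more of the cells of the higher pool, a share of cells 20 points higher, and a ratio past 1 that holds without the highest cells and against every Trps1 gRNA series. It was met by 33 genes (0.285%) towards the Sox9 gRNA and 178 (1.54%) towards the Trps1 gRNA. The rule asks for agreement of 3 series on 1 side only, so these numbers are not comparable between directions. The no gRNA level lay between the pools for 23 of the 33 and 146 of the 178. These genes were chosen for a wide gap between the pools, which favours a level in between. The share over all genes was not counted.

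Rasa3 (ENSMUSG00000031453, chr8:13566948-13677603, minus strand), a GTPase-activating protein that switches off Ras and Rap1, was the leading gene towards the Sox9 gRNA. It was at 263 CPM (255 to 270) against 16.9 CPM (15.4 to 18.6), a log2 ratio of 3.61. A read was found in 14 of 21 cells (66.7%, interval 43.0 to 85.4%) and in 10 of 30 (33.3%, 17.3 to 52.8%). Sox9 gRNA cells ran from 0 to 1089 CPM with a median of 39.1, and Trps1 gRNA cells from 0 to 482 CPM with a median of 0. The ranges overlapped, and the series of the Trps1 gRNA were at 52.0, 5.61 and 11.4 CPM. The ratio stayed between 2.23 and 4.66 against single series. Cells with no gRNA had 62.0 CPM and a read in 7 of 23.

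Cmtm5 (ENSMUSG00000040759, chr14:54936261-54939274, plus strand), a membrane protein with a MARVEL domain, was lower with the Sox9 gRNA. It was at 39.2 CPM (36.2 to 42.2) against 282 CPM (276 to 288), a log2 ratio of -2.70. A read was found in 3 of 21 cells (14.3%, 3.05 to 36.3%) and in 23 of 30 (76.7%, 57.7 to 90.1%). One Sox9 gRNA cell at 994 CPM gave 94.2% of that pool's reads, and without the highest cell of each pool the levels were 2.37 and 242 CPM and the ratio -5.07. That cell is also the 1 that led in oligodendrocyte markers, and without it and 1 endothelial-marker cell of the Trps1 gRNA pool the ratio was -5.32. The Trps1 gRNA series were at 84.2, 396 and 271 CPM, which put the ratio against 21T alone at -1.01, at the edge of the threshold. The no gRNA level was 248 CPM and a read in 16 of 23, close to the Trps1 gRNA pool.

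Serpina3n (ENSMUSG00000021091, chr12:104406729-104414329, plus strand), a secreted serine protease inhibitor and a common marker of reactive astrocytes, had the largest ratio of the 4 markers but not in every series. It was at 2.75 CPM (2.02 to 3.66) in the Sox9 gRNA pool and 255 CPM (249 to 261) in the Trps1 gRNA pool, a log2 ratio of -5.07. A read was found in 2 of 21 cells (9.52%, 1.17 to 30.4%) against 14 of 30 (46.7%, 28.3 to 65.7%), and the highest Trps1 gRNA cell was at 2301 CPM. Series 21T2 and 21T3 stood at 241 and 375 CPM. Series 21T stood at 0.8 CPM with a read in 1 of 9 cells, so the ratio against it alone was 0.42, in the other direction. The no gRNA pool had 106 CPM and a read in 14 of 23.

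Fgf1 (ENSMUSG00000036585, chr18:38838673-38929472, minus strand), an acidic fibroblast growth factor, was at 8.2 CPM (6.89 to 9.67) against 171 CPM (166 to 176), a log2 ratio of -3.74. A read was found in 4 of 21 cells (19%, 5.45 to 41.9%) and 13 of 30 (43.3%, 25.5 to 62.6%). A cell at 2027 CPM gave 53.2% of the Trps1 gRNA reads, and without the highest cells the ratio was -3.30. The series were at 51.8, 377 and 48.9 CPM, all above the Sox9 gRNA pool, and no gRNA cells were at 27.1 CPM.

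**Figure D2:**
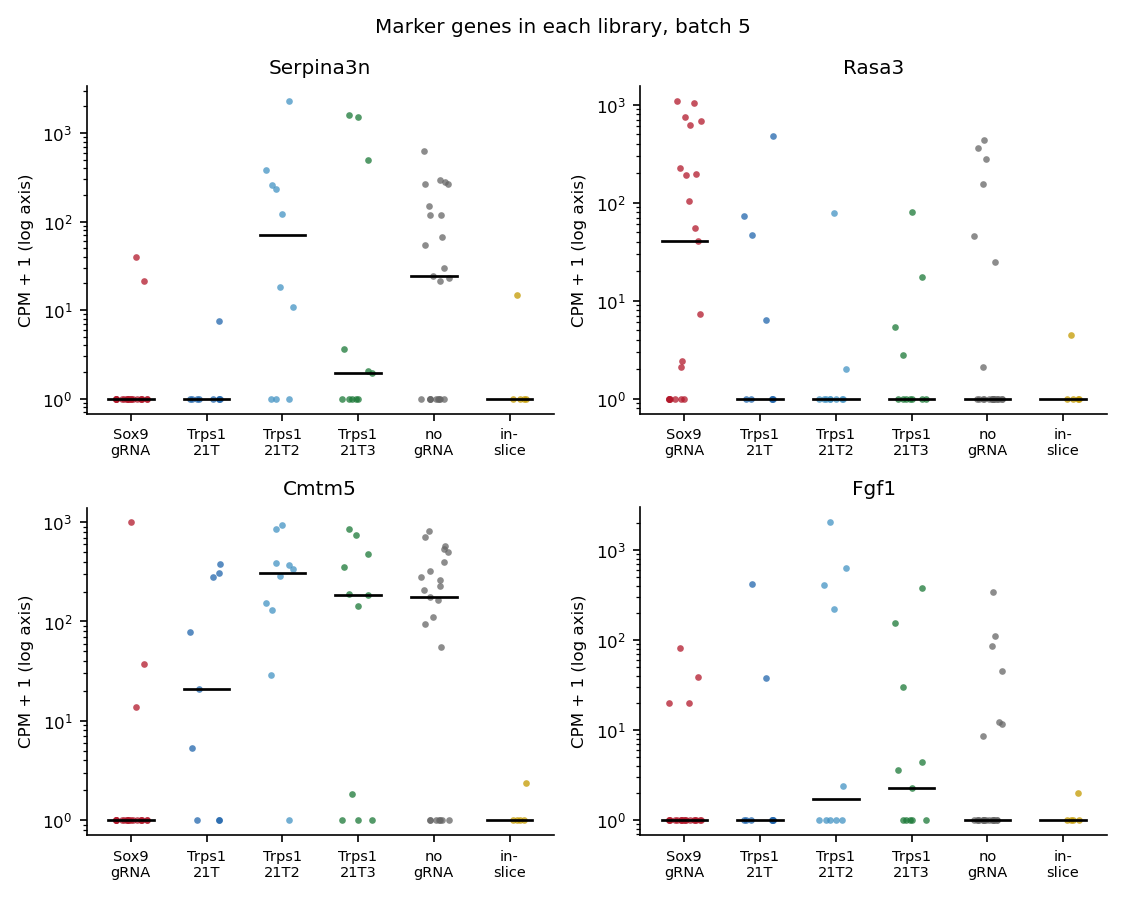
Each point is 1 library and each black line a group median, with CPM plus 1 on a log axis, for Serpina3n, Rasa3, Cmtm5 and Fgf1. Rasa3 is the 1 marker higher in the Sox9 gRNA cells, with a read in 14 of 21, and Serpina3n is at 0 or near it in series 21T, which had a read in 1 of 9 cells.

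Of the other genes named towards the Sox9 gRNA, Tmem94, a membrane protein of the endoplasmic reticulum, was at 175 CPM against 12.4 CPM, with a read in 11 of 21 and 4 of 30 cells. Its ratio was 3.38, and its no gRNA level was 106 CPM. Pde9a, a phosphodiesterase that breaks down cyclic GMP, was at 71.8 against 1.89 CPM, in 10 and 3 cells, a ratio of 3.48. Ephx2, the soluble epoxide hydrolase that acts on lipid epoxides and is made by astrocytes, was at 238 against 41.9 CPM, in 14 and 6 cells, a ratio of 2.38.

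Rars, the arginyl-tRNA synthetase, was at 111 against 11.3 CPM in the pools. The kinase Stk38l was at 83.9 against 14.4 CPM, and the phosphoinositide phosphatase Mtmr6 at 148 against 28.1 CPM. Rmdn3, which tethers mitochondria to the endoplasmic reticulum, was at 112 against 17.5 CPM, and Atad3a, an inner membrane ATPase, at 113 against 22.5 CPM. The levels of Rars and Atad3a in in-slice controls were 225 and 315 CPM.

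Itgam and Fermt3, the alpha chain of an integrin of microglia and other myeloid cells and an integrin activator of blood cells, were named too. Itgam was at 60.5 against 3.10 CPM, and Fermt3 at 154 against 26.1 CPM. No gRNA cells had 0.227 and 0 CPM of them, and in-slice controls 39.0 and 1.03 CPM.

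Of the genes named towards the Trps1 gRNA, which Cmtm5 led, Vim, the vimentin filament protein that reactive astrocytes make more of, was at 15.4 CPM against 141 CPM, with a read in 5 of 21 and 16 of 30 cells and a ratio of -2.84. The 3 Trps1 gRNA series stood close together, at 146, 163 and 121 CPM, and no gRNA cells had 18.8 CPM. Pmvk, the phosphomevalonate kinase of the sterol pathway, was at 14.2 against 99.9 CPM, in 3 and 15 cells, a ratio of -2.45. Erg28, which scaffolds sterol enzymes, was at 5.39 against 133 CPM, a ratio of -3.73, with 410 CPM in in-slice controls.

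Mpzl1, a cell surface glycoprotein, had the largest ratio of these, at 2.17 against 152 CPM, a ratio of -4.45. Eif2b2, a subunit of the exchange factor eIF2B that restarts translation, was at 2.46 against 99.5 CPM. Ganab, the glucosidase II alpha subunit that trims glycans, was at 18.2 against 67.2 CPM. Ssx2ip, Actl6b and Cstf2t were at 7.14, 10.4 and 9.25 CPM in the Sox9 gRNA pool and at 91.8, 65.0 and 122 CPM in the Trps1 gRNA pool. Ssx2ip acts at cell junctions and centrosomes, Actl6b is a neuronal subunit of the BAF chromatin complex, and Cstf2t takes part in cleavage of the 3′ ends of RNA. Across the genes named this way in either direction, the ratio kept its direction against every series, by the rule itself.

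**Figure D3:**
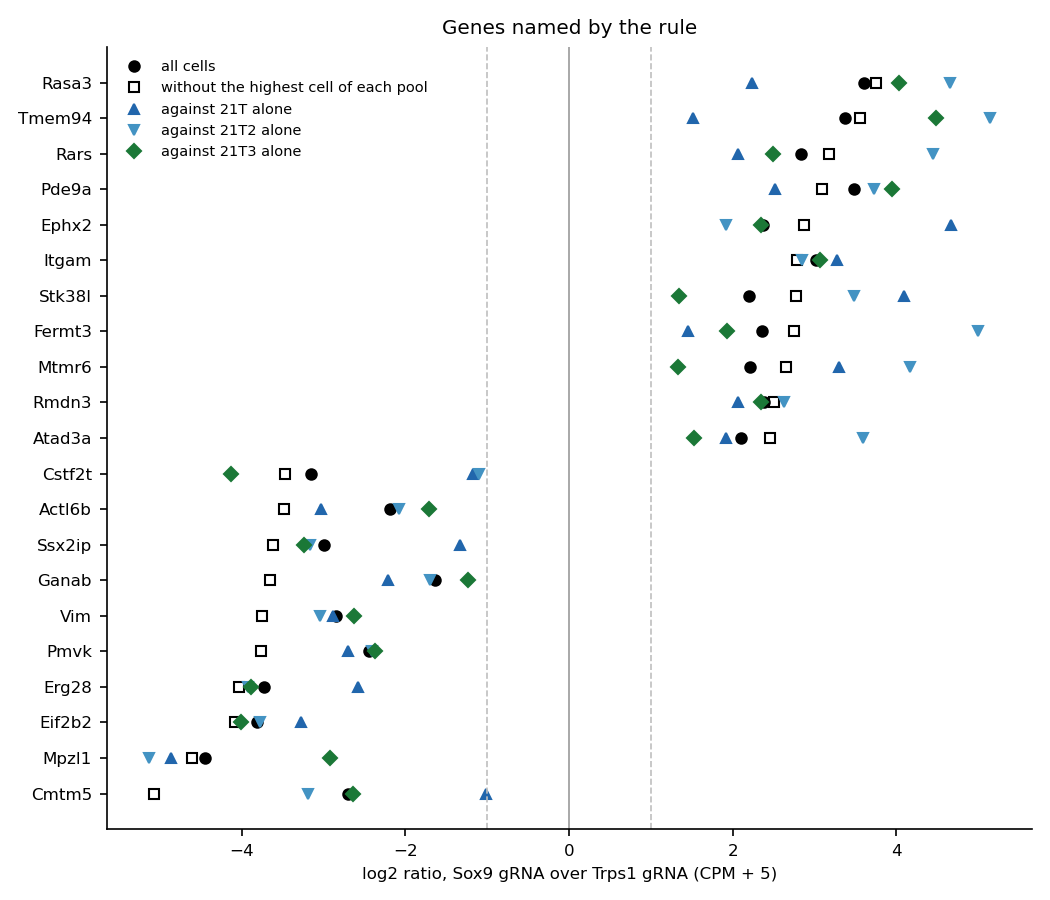
Each row is a gene named in the text by the rule, with the log2 ratio on the horizontal axis for all cells (circles), without the highest cell of each pool (squares) and against each Trps1 gRNA series alone. Dashed lines stand at 1 and -1. Rasa3 leads at 3.61 and Mpzl1 lies lowest over all cells at -4.45, while Cmtm5 comes closest to the threshold, at -1.01 against 21T.

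Genes of reactive astrocytes lay lower with the Sox9 gRNA in the pools. Of 20 compared, 10 were past the threshold towards the Trps1 gRNA and 1 towards the Sox9 gRNA, with a median of -0.92 beside -0.29 for all genes. Over all genes 27% and 15% were past it these ways. Serpina3n, a marker given with the comparison, was among the 10. Without the oligodendrocyte-marker and endothelial-marker cells the calls were 9 and 2 and the median was -0.50. Osmr, the oncostatin M receptor, was the 1, at 86.8 against 35.5 CPM in 5 and 4 cells. Gfap, the main intermediate filament of astrocytes, was at 314 against 827 CPM, with a read in 12 of 21 and 23 of 30 cells. Series 21T was again apart: Gfap stood at 62.8 CPM there and at 965 and 1041 CPM in 21T2 and 21T3, and the median of the list against 21T alone was 0.08. S100b, a calcium-binding protein of astrocytes, was at 84.8 against 299 CPM and lower than each series alone.

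Of 30 cholesterol and fatty acid synthesis genes compared, 9 were past the threshold towards the Trps1 gRNA, a share near the 27% of all genes, and 2 towards the Sox9 gRNA. Their median was -0.66. Scd1, the stearoyl-CoA desaturase, was at 1.58 against 44.0 CPM, in 1 and 16 cells. Ebp, a sterol isomerase, went the other way, at 30.7 against 1.06 CPM, in 3 and 1 cells. The median was -0.52 and -0.98 against 21T and 21T2, and 0.21 against 21T3. Lipid uptake and export genes were split, 6 each way of 29, beside 15% and 27% of all genes towards the Sox9 and Trps1 gRNA. Abca1, the cholesterol exporter, was at 218 against 44.6 CPM in 12 and 10 cells, and Fabp7, the brain fatty acid-binding protein, at 24.2 against 130 CPM in 7 and 21 cells.

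Among extracellular matrix and cartilage genes, where both targets act in skeleton, 10 of 18 were past the threshold towards the Trps1 gRNA and 1 towards the Sox9 gRNA, with a median of -1.18. Over all genes 27% and 15% were past it these ways. The median was -1.56, -0.37 and -0.18 against 21T, 21T2 and 21T3 alone, with 4 past the threshold each way against 21T3, and the list summed to 2095 CPM and 2097 CPM in the pools. Col11a2, a cartilage collagen chain, had 0 reads in 21 Sox9 gRNA cells, which allows up to 0.176 CPM, and 39.3 CPM in 7 of 30 Trps1 gRNA cells. The no gRNA level was 42.5 CPM. Col9a3 was at 6.09 against 154 CPM, but in 1 and 6 cells, and at 0 in series 21T3. Tnr, tenascin R, was higher with the Sox9 gRNA, at 64.0 against 19.2 CPM.

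In the SOX family, 2 of 9 genes were past the threshold each way, beside 15% and 27% of all genes towards the Sox9 and Trps1 gRNA. Sox8, a close relative of Sox9 in the SOXE group, was at 53.4 CPM in 11 of 21 cells against 5.82 CPM in 9 of 30, a ratio of 2.43 that held against every series (1.97 to 3.30). No gRNA cells had 49.9 CPM. Sox5, a SOXD partner of Sox9 in cartilage, was at 14.4 against 110 CPM, in 8 and 19 cells, a ratio of -2.57. Among 14 GATA family and TRPS1 partner genes, 4 were past the threshold towards the Trps1 gRNA and 1 towards the Sox9 gRNA, shares near or below the 27% and 15% of all genes. Mta1, a subunit of the NuRD repressor complex, was at 0.176 against 26.8 CPM, and the corepressor Ctbp1 at 30.3 against 128 CPM.

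The families of 3 markers were mixed in direction in the pools. Over all genes 15% were past the threshold towards the Sox9 gRNA and 27% towards the Trps1 gRNA. Each list holds its own marker. Of 17 Ras GTPase-activating and related genes, Rasa3 among them, 3 were past it towards the Sox9 gRNA and 5 towards the Trps1 gRNA. These are near the shares of all genes. The median was -0.23, and 0.75 against series 21T2, where 7 and 2 were past the threshold. Spred1, an inhibitor of Ras signalling, was at 84.0 against 24.3 CPM, and the scaffold Iqgap1 at 10.8 against 58.7 CPM. Of 18 FGF pathway genes, 3 were past it in each direction. Fgfr3, a receptor that astrocytes express, was at 1039 against 458 CPM in 17 and 18 cells, and Fgf13, which binds sodium channels inside cells, at 19.7 against 129 CPM. The ratio of Fgfr3 was 1.17 over all cells and 0.74, within the threshold, without the highest cell of each pool. Of 10 CMTM family genes, 4 were past it towards the Sox9 gRNA and 3 towards the Trps1 gRNA, with a median of 0.55. Without the oligodendrocyte-marker and endothelial-marker cells these were 2 and 4 and the median was -0.58, with Cmtm5 itself 1 of the 10. Cmtm6 was at 167 against 49.99 CPM.

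Nuclear oxidative phosphorylation genes, which code for subunits of the respiratory chain, were mostly below 0 in ratio, by 50 of 56 compared. Most of all genes compared lay below 0 too, by a share that was not counted, and their median was -0.07 with TMM factors. The list summed to 9498 CPM in the Sox9 gRNA pool, 14146 CPM in the Trps1 gRNA pool and 13307 CPM in in-slice controls. Past the threshold were 16 towards the Trps1 gRNA, a share near the 27% of all genes, and 0 towards the Sox9 gRNA. The median was -0.61 beside -0.29 for all genes. Ndufa5, a complex I subunit, was at 41.6 against 158 CPM, in 11 and 25 cells. The list's median was -0.21, -0.69 and -0.72 against the 3 series. Cytosolic ribosomal proteins had 35 of 50 above 0, a median of 0.27, and Rplp0 at 1047 against 438 CPM as the 1 past the threshold. The share of all genes above 0 was not counted. The median was 0.72, 0.86 and -0.12 against 21T, 21T2 and 21T3. This list summed to 13543 CPM in the Sox9 gRNA pool and 10131 CPM in the Trps1 gRNA pool. In-slice controls had 17249 CPM of it and no gRNA cells 5364 CPM. The part of RNA from outside the cell in these lists was not tested.

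Of 19 p53 response genes, 8 were past the threshold towards the Trps1 gRNA and 2 towards the Sox9 gRNA, but 5 and 8 against series 21T2 alone. Over all genes 27% were past it towards the Trps1 gRNA and 15% towards the Sox9 gRNA. Sesn1, a stress-induced sestrin, was at 6.32 against 74.8 CPM. Of 15 cell cycle genes, 7 were past it towards the Trps1 gRNA and 0 the other way, and 3 and 2 against 21T2. Among the 7 was the replication helicase subunit Mcm4 at 3.69 against 33.6 CPM. Of 14 Notch pathway genes, 5 and 2 were past it, and 4 each way against 21T3, with the receptor Notch2 at 6.56 against 60.4 CPM and the ligand Jag1 at 4.22 against 30.1 CPM. Mfng, which adds sugars to Notch, was at 130 against 11.4 CPM, in 6 and 2 cells.

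Interferon and antiviral genes went both ways, with 9 of 23 past the threshold towards the Sox9 gRNA and 6 towards the Trps1 gRNA. Over all genes these shares were 15% and 27%. The calls were 13 and 1 against 21T alone, 12 and 5 against 21T2, and 8 and 6 against 21T3. Without the highest cells they were 7 each way. Gbp2, a guanylate-binding protein induced by interferon, had 0 reads in the Sox9 gRNA pool and 122 CPM in 8 of 30 Trps1 gRNA cells, with 0 reads in series 21T. MHC class II genes, which present peptides, differed between the Trps1 gRNA series. H2-Eb1 was at 11.3 against 196 CPM in the pools and at 0.400, 0.102 and 445 CPM in the series. H2-Aa was at 66.0 against 312 CPM, and at 698 CPM in 21T3. The median of 13 class II genes was -1.21 against 21T3 and 1.82 and 1.85 against 21T and 21T2.

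**Figure D4:**
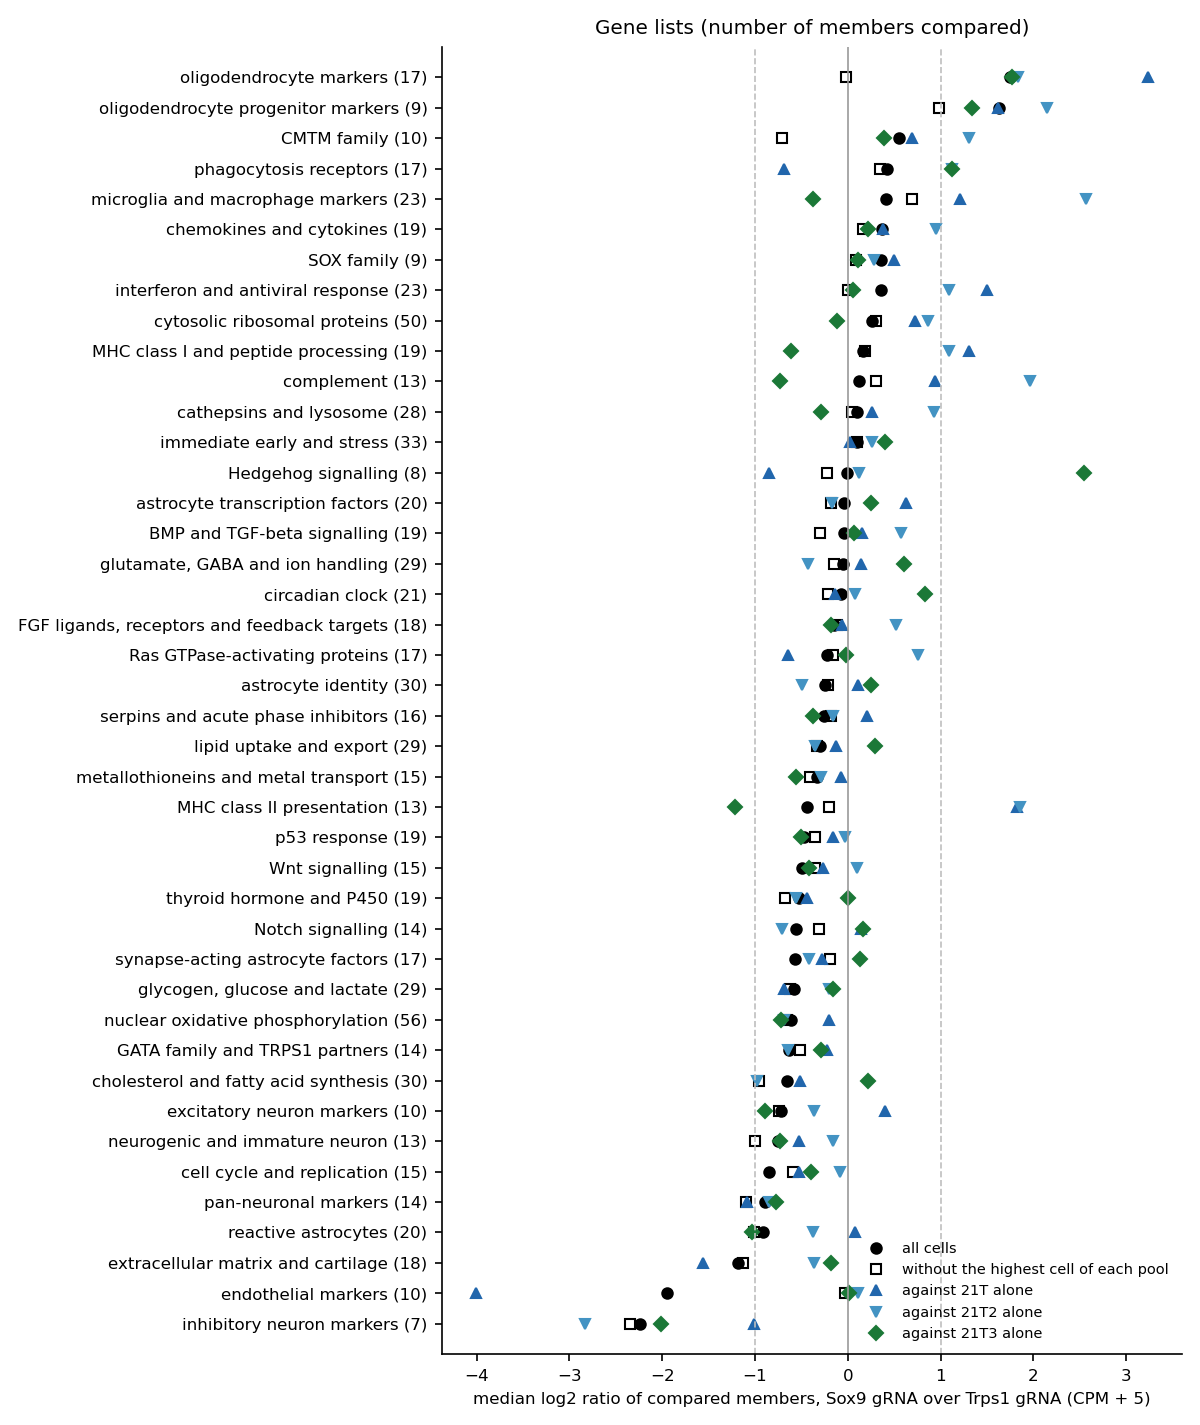
Each row is a gene list with 5 or more members compared, with the median log2 ratio of its members over all cells (circles), without the highest cell of each pool (squares) and against each Trps1 gRNA series alone. Inhibitory neuron markers lie lowest at -2.24 and oligodendrocyte markers highest at 1.74, and the latter is at -0.02 without the highest cells.

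RNA of other cell types was present in both pools, at levels that differed between the gRNAs. Microglia and macrophage markers summed to 12561 CPM in Sox9 gRNA cells (218 to 52546, median 7893) and 9523 CPM in Trps1 gRNA cells (0.842 to 50673, median 3196). The Trps1 gRNA series were at 5620, 2453 and 17131 CPM, in-slice controls at 6247 CPM and no gRNA cells at 317 CPM. Of 24 markers, 1 was at 0 in the Sox9 gRNA pool and 0 in the Trps1 gRNA pool. Of 23 compared, 2 were past the threshold towards the Sox9 gRNA and 0 the other way, beside 15% and 27% of all genes. The median was 0.41, and -0.38 against series 21T3. The 2 were Itgam and Tmem119, a microglial membrane protein, at 339 against 88.7 CPM. Csf1r, the receptor microglia need to survive, was at 570 against 514 CPM. The part of this RNA in Itgam, Fermt3 and the class II genes was not tested.

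Inhibitory and pan-neuronal markers were lower with the Sox9 gRNA. Over all genes 27% were past the threshold towards the Trps1 gRNA, and most had a ratio below 0 (median -0.29). All 7 inhibitory neuron markers compared were past the threshold towards the Trps1 gRNA, with a median of -2.24, summing to 118 CPM (0 to 624 in single cells) against 489 CPM (0 to 1878). A gene was compared by the mean of both pools, so a marker could enter through the Trps1 gRNA pool alone, which favours this direction. Against 21T alone 4 of the 7 were past it towards the Trps1 gRNA and 1 towards the Sox9 gRNA, with a median of -1.01. These were 5 and 1 against 21T2 and 6 and 0 against 21T3. Of 11 listed, 1 was at 0 in the Sox9 gRNA pool and 0 in the Trps1 gRNA pool. Gad2, an enzyme that makes GABA, was at 2.22 against 70.0 CPM, in 9 and 15 cells. Lamp5 and Gad1 went the other way against series 21T2 alone. Of 14 pan-neuronal markers, 14 had a ratio below 0 and 6 were past the threshold, with sums of 3337 CPM (350 to 20081) and 6769 CPM (104 to 27803). In-slice controls had 7924 CPM and no gRNA cells 4204 CPM. Without the 3 cells low in astrocyte identity the sums were 3452 and 5990 CPM, with 5 past the threshold. Excitatory neuron markers were closer, at 1745 against 1990 CPM with 4 of 10 past the threshold and a median of -0.72, which was 0.40 against 21T. The part of this RNA in the genes named above was not tested.

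The cells that stood apart were 1 in each pool. A Sox9 gRNA cell of 633636 reads had 85227 CPM of oligodendrocyte markers, where the next highest had 12698 CPM, and 10130 CPM of astrocyte identity genes, the lowest of its pool. Over all cells 11 of 17 oligodendrocyte markers were past the threshold towards the Sox9 gRNA, with a median of 1.74, sums of 6706 CPM (492 to 85227) and 3497 CPM (0.984 to 16460) and 0 and 1 markers at 0. Without that cell and its counterpart, 1 was past it that way and 7 the other, with a median of -0.58. Oligodendrocyte progenitor markers had a median of 1.63 with 7 of 9 past the threshold, and 1.68 with 6 of 9 without these cells. Without the highest cell of each pool for each gene it was 0.98 with 4 of 9, and 1 Sox9 gRNA cell held 4279 CPM of these markers. Bcas1 was at 104 against 21.3 CPM. The counterpart was a Trps1 gRNA cell of series 21T with 7349 CPM of endothelial markers, where the next had 186 CPM. The endothelial list rested on it: 8 of 10 were past the threshold towards the Trps1 gRNA with the 2 cells and 1 without them, and the median went from -1.95 to 0.02. Over all genes the counts without the 2 cells were 1763 (15.2%) and 3146 (27.2%).

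**Figure D5:**
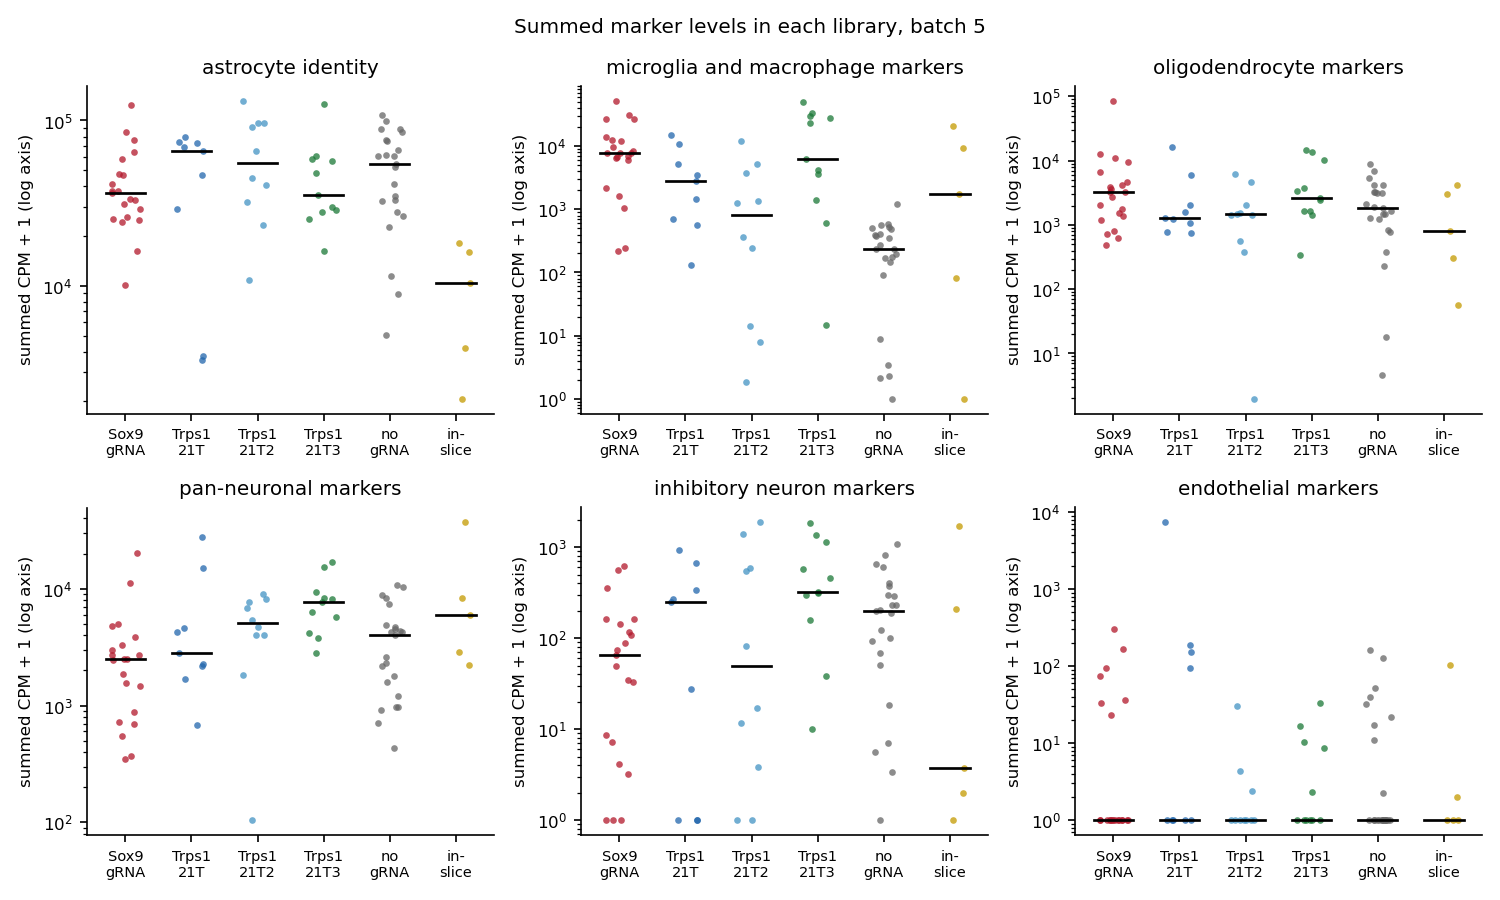
Each point is the summed CPM, plus 1, of a marker list in 1 library on a log axis, with group medians as black lines. Microglia and macrophage markers are far lower in no gRNA cells (317 CPM in the pool) than in either gRNA pool, and the 2 cells that stand apart are the highest points for oligodendrocyte (85227 CPM) and endothelial (7349 CPM) markers.

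The no gRNA cells differ from both pools in more than the gRNA. Xist, the RNA of the inactive X chromosome, chosen for naming after its values were seen, was at 189 CPM in 13 of 23 no gRNA cells and at 0.585 and 0.0378 CPM in the gRNA pools. Their levels above are given as a reference and not as a control.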

How the data were processed

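Smart-seq2 reads of single cells were counted per gene, and the authors deposited raw whole-number counts in 1 table per batch, and only the batch 5 table was used here. The submitters' processing notes list, without roles, STAR 2.6.0a and RSEM 1.3.0 among tools and GRCm38 and mm10 among builds. No source states how strand was handled, and overlapping or near-identical genes may share reads. Columns were matched to samples by title, and 0 of 79 were left unmatched. Of 27849 gene rows, 27786 had a symbol. The 3 rows that name no gene (0.137% of counts) stayed out of totals. All cells had over 100000 reads in genes, so none was filtered out. No doublet caller was run. By the labels each library other than an in-slice control came from 1 aspirated cell, but both gRNA pools held RNA of other cell types.

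Counts were summed per pool and given as CPM with exact intervals (Python 3.11.15, scipy 1.17.1), and edgeR 4.0.16 served for TMM factors only. Calls were a log2 ratio of 1 or more either way at a pseudocount of 5 CPM, over genes with a mean of 5 CPM or more. Named were Sox9, Trps1, the 4 given markers, and genes at 20 CPM or more in the higher pool that met the rule in the report, 12 each way, ranked by the ratio without the highest cells. Genes without a symbol, predicted genes, and genes of mitochondria or ribosomal proteins were passed over for naming, and values of 3 further genes are left out of the text. From each list up to 4 members could be named, the 2 highest and the 2 lowest by that ratio. The members of the comparison and the 38 gene lists and 11 cell type lists were chosen with earlier results of these data known. The ratio and threshold were tested on simulated cells with large changes put into genes at higher levels. The simulation held no title series, so it does not bear on differences between them. Coordinates are GRCm38 (GENCODE vM21).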

Additional observations from a re-analysis of the deposited data

Results flagged for a closer look

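Among the 5 in-slice controls, 1 library stood far from the others in each of a pair of measures, by a gap over 0.71 of the range of the 5. The DsRed row was at 492.359 CPM in 1 library and at 16.6 CPM or less in the other four. Summed pan-neuronal markers were at 36986.6 CPM in 1 library and from 2235 to 8404 CPM in the other four. About 1 in 20 such groups is marked by chance.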

How the results depend on the processing

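Genes towards the Sox9 gRNA were 1735 over all cells and 743 at a pseudocount of 20 CPM, 894 of the genes at a mean of 20 CPM or more, 296 by the mean of single-cell log2 values, 3551 and 3009 against series 21T2 and 21T3 alone, and 588 without the 3 highest cells of each pool, an alternative chosen after seeing the data. Those towards the Trps1 gRNA were 3118, and 1501, 1729 and 819 under the first 3 of these settings and 1737 without genes found in in-slice controls. The minimum of 20 CPM compares fewer genes, 7243, as does leaving out genes of in-slice controls. For the others the cause was not tested. Turns of direction are listed for genes with a ratio of 1 or more and lists with a median of 0.5 or more, either way. Of 89 genes and 42 lists in all, 8 genes and 24 lists lay below those sizes. Among the remaining genes and lists, 11 genes and 9 lists turned under some alternative. Of those below, 5 of 8 genes, Trps1 among them (1.66 against 21T3), and 21 of 24 lists turned too. Against series 21T alone the ratios turned to 0.42 for Serpina3n, -0.24 for Ikzf1, 2.23 for Gfap, 1.46 for Ifit3, 1.46 for H2-Aa and 1.59 for H2-Eb1. Against 21T2 they turned to 1.65 for Slc16a1, 3.83 for H2-Aa, 1.68 for H2-Eb1, 2.68 for Lamp5 and 0.95 for Gad1, and against 21T3 to 1.15 for Col9a3 and 0.0155 for Cldn5. Without 21T3 they were 2.56 for H2-Aa, 1.65 for H2-Eb1 and 0.84 for Lamp5, and without the 2 cells that stand apart 0.03 for Cldn5. List medians turned against 21T for reactive astrocytes (0.0775), Notch (0.14) and excitatory neuron markers (0.40). They turned against 21T3 for Notch (0.16), synapse-acting factors (0.13), cholesterol and fatty acid synthesis (0.21), thyroid hormone and P450 (0.0054) and endothelial markers (0.0077). Endothelial markers were at 0.11 against 21T2, 0.048 without 21T and 0.015 without the 2 cells. Oligodendrocyte markers were at -0.0153 without the highest cells and -0.58 without the 2 cells. The CMTM family was at -0.0415 by single-cell log2 values, -0.71 without the highest cells, -0.70 without genes of in-slice controls, -0.018 without the 3 highest cells and -0.58 without the 2 cells. Without the 3 cells below in-slice controls in astrocyte identity, also chosen after seeing the data, oligodendrocyte markers were at -0.59 and the CMTM family at -0.54. The cause of these changes was not tested. No paired analysis was possible because the result comes from no test and the labels name no animal.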

Other observations

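Drug and hormone metabolism genes not described above included Por, the reductase that feeds electrons to cytochrome P450 enzymes, at 67.5 CPM in Sox9 gRNA cells and 267 CPM in Trps1 gRNA cells, with a read in 8 of 21 and 20 of 30. No gRNA cells had 370 CPM. Cyp7b1, an oxysterol hydroxylase, was at 16.04 against 102 CPM, in 2 and 9 cells. Of 19 such genes compared, 4 were past the threshold towards the Trps1 gRNA and 3 towards the Sox9 gRNA. Over all genes these shares were 27% and 15%. Acsl5, which activates long-chain fatty acids, was at 62.9 against 8.96 CPM, in 12 and 3 cells, but at 47.4 CPM in series 21T and 141 CPM in in-slice controls.

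Of 21 circadian clock genes, 17 lay within the threshold, as did 25 of 29 genes of glutamate, GABA and ion handling and 25 of 28 cathepsin and lysosome genes, with medians of -0.07, -0.05 and 0.10. Over all genes 15% were past it towards the Sox9 gRNA and 27% towards the Trps1 gRNA.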
